A study of Homo sapiens with 6 samples.

Results

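The SLCO genes encode organic anion transporting polypeptides, membrane carriers for large amphipathic solutes. The members described here are SLCO2B1, SLCO2A1, SLCO3A1, SLCO4A1, SLCO4C1, SLCO1B3 and SLCO5A1, that is 7 of the 12 protein-coding SLCO genes in a table of 60683 Ensembl genes. They were picked with the comparison below already known. SLCO2B1 had the largest log2 fold change among genes that were well expressed on average over all 6 samples. The differences of the members between the groups are therefore given as descriptions, without p-values. RNA was sequenced from RCC4, a human clear cell renal carcinoma line without functional VHL. The 3 ATF4 KO samples carry a knockout of ATF4, a stress-responsive bZIP transcription factor, and the 3 parental samples are the same line labelled wild type. How ATF4 was disrupted, and whether the KO cells are 1 clone, is not given in the sources used here.

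Carriers of this family take up steroid sulfates, thyroid hormones, prostaglandins, bile acids, bilirubin conjugates and many drugs, and are thought to exchange them for another anion. In the kidney, SLCO4C1 lies in the basolateral membrane of proximal tubule cells, where it takes up cardiac glycosides and thyroid hormones from blood. SLCO1B3 is known from hepatocytes, SLCO2B1 from liver, intestine and many other tissues, and SLCO2A1 as the prostaglandin transporter. SLCO3A1 and SLCO4A1 are broadly expressed, and the solutes of SLCO5A1 are poorly known.

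The libraries held 41002611 to 46755358 counts, so that 3 counts, the limit that a count of 0 allows, were worth 0.0634 to 0.0729 CPM, the count per library size after TMM scaling. Such limits cover counting error only. Of 15321 genes with enough counts to be tested, edgeR called 21.2% higher and 20.8% lower in ATF4 KO cells at an adjusted p of 0.05. The groups did not overlap in 49.6% of tested genes, and the median log2 fold change was 0.0077. ATF4 counts were 8628, 10386 and 9895 in ATF4 KO cells, against 10413, 11037 and 10219 in parental cells. The ATF4 log2 fold change was -0.19 (SE 0.029, edgeR adjusted p = 3.19e-07), and 0.064 once the median of its chromosomal neighbours was removed. Gene counts do not show whether the coding sequence is intact, so this level does not check the labels. PAX8, a renal lineage factor, stood at 215 ± 7.64 CPM in ATF4 KO cells and 238 ± 3.49 CPM in parental cells (SD, n = 3 each). Of 8 immune markers, 4 had no count in any library. The summed level of the immune list was 0.632 to 0.677 CPM in ATF4 KO cells and 0.318 to 0.617 CPM in parental cells. The hepatocyte list, led by SERPINA1, summed to 12.0 to 13.3 CPM in ATF4 KO cells and 13.7 to 14.8 CPM in parental cells, with ALB at 0 in every library. The intestinal list, led by CDH17, summed to 10.5 to 11.7 CPM in ATF4 KO cells and 16.6 to 18.6 CPM in parental cells. The fibroblast list summed to 91.9 to 94.5 CPM in ATF4 KO cells and 106 to 125 CPM in parental cells, and all 3 of its tested genes fell. The endothelial list was at 0.292 to 0.452 CPM in ATF4 KO cells and 0.207 to 0.296 CPM in parental cells. Of 14 renal and clear cell carcinoma markers 12 were tested, with 4 higher and 5 lower. The largest rises were those of CA9 and NDUFA4L2, with log2 fold changes of 2.55 and 0.77. Among proximal tubule markers, ANPEP and LRP2 were near 0, and CUBN was at 0.664 CPM in ATF4 KO cells and 0.597 CPM in parental cells. GGT1 was present, at 8.58 CPM in ATF4 KO cells and 13.0 CPM in parental cells, and was called lower. The part of these markers in the results below was not tested.

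SLCO2B1 is the member with the large difference, and SLCO4C1 is the most abundant one, so the start regions of both are shown. Each sequence runs from 250 bases before to 50 bases after a RefSeq transcript start (GRCh38.p14), 5' to 3' on the strand of the gene, and CG dinucleotides are in capitals.
SLCO2B1, window 1, chr11:75150857-75151156, plus strand: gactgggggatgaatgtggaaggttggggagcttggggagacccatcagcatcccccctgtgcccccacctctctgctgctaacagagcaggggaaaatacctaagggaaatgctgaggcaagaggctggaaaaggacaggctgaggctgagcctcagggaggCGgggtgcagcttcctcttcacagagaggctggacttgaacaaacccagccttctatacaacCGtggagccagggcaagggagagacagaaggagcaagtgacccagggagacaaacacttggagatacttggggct
SLCO2B1, window 2, chr11:75159582-75159881, plus strand: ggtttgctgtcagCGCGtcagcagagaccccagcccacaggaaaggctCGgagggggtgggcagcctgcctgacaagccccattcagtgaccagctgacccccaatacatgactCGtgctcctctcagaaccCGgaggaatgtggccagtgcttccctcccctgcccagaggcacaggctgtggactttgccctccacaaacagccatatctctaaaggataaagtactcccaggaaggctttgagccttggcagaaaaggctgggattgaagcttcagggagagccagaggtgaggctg
SLCO4C1, chr5:102296235-102296534, minus strand: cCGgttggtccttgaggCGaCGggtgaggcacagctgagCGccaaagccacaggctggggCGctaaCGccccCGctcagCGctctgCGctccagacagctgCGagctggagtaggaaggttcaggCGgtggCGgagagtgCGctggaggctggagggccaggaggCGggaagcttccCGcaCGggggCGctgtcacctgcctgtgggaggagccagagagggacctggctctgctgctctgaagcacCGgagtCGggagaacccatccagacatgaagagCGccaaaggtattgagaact

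Both SLCO2B1 windows lie within the gene as GENCODE annotates it, and the sequence at its start at 75100563 was not analysed here. These windows were poor in CG, with 2 and 5 dinucleotides, against 20 in the SLCO4C1 window. The median over 35116 windows of the same length in the RefSeq table was 14. Both SLCO3A1 windows held more, 41 and 38, and the SLCO1B3 window held 0. The remaining members had no window in the table. The C/EBP-ATF composite motif TGATGNAA was searched on both strands and was not found in any of these 6 windows, against 3.62% of all windows. TGACG, from the cyclic AMP response element, was present in 24.6% of all windows. It occurred once here, on the minus strand of SLCO2B1 window 2, at position -235 from the start. The hypoxia response core ACGTG, present in 21.4% of all windows, was not found in the 6 windows. These are letter matches in short windows, and counts per gene do not show which start the transcripts used.

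SLCO2B1 (ENSG00000137491, chromosome 11, 75100563 to 75206549, plus strand, GRCh38), a carrier of oestrone sulfate and statins, was expressed at a low level in parental cells and at a moderate level in ATF4 KO cells. It had 2251, 2518 and 2617 counts in the ATF4 KO samples, against 98, 112 and 116 counts in the parental samples. Every ATF4 KO sample lay far above every parental sample, and 49.6% of all tested genes were likewise without overlap in either direction. Normalised expression was 54.7 ± 0.585 CPM in ATF4 KO cells and 2.52 ± 0.251 CPM in parental cells (SD, n = 3 each). The log2 fold change was 4.44 (SE 0.073), which is 21.7-fold higher in ATF4 KO cells. In bulk RNA, more expressing cells and more transcript per cell cannot be told apart. The next 2 genes after SLCO2B1 in the order that picked it were CA9, at 2.55, and DMPK, at 1.74 on the same scale. That order held called genes without overlap and with a mean of at least 10 CPM over the 6 samples. SLCO2B1 reached that mean only through the ATF4 KO samples. Over the 14 alternative analyses the log2 fold change of SLCO2B1 was between 4.37 and 4.61.

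SLCO4C1 (ENSG00000173930, chromosome 5, 102233986 to 102296549, minus strand) was somewhat lower in ATF4 KO cells. It had 4539, 4946 and 5011 counts in the ATF4 KO samples, against 5584, 5683 and 5300 counts in the parental samples. The groups did not overlap, at 108 ± 2.42 CPM in ATF4 KO cells and 128 ± 1.79 CPM in parental cells (SD, n = 3 each). The log2 fold change was -0.25 (SE 0.032), or 1.19-fold lower in ATF4 KO cells. SLCO4A1 (ENSG00000101187, chromosome 20, 62642445 to 62685785, plus strand), a carrier of thyroid hormones, showed a difference of similar size on fewer counts. It had 516, 601 and 578 counts in ATF4 KO cells, against 690, 615 and 591 counts in parental cells. In CPM the ATF4 KO samples, from 12.2 to 12.9, lay below the parental samples, from 14.0 to 15.9. The lack of overlap of SLCO4C1 and SLCO4A1 was shared by 49.6% of all tested genes, in either direction. The log2 fold change of SLCO4A1 was -0.22 (SE 0.076), and it was -0.20 without ATF4 KO replicate 3, -0.16 without parental replicate 1 and -0.050 once the median of neighbouring genes was removed, each time short of the threshold.

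SLCO3A1 (ENSG00000176463, chromosome 15, 91853695 to 92172435, plus strand), which carries prostaglandins, had 921, 1073 and 942 counts in ATF4 KO cells, against 1026, 1009 and 973 counts in parental cells. The groups overlapped in CPM, at 21.8 ± 1.66 in ATF4 KO cells and 23.2 ± 0.339 in parental cells, with a log2 fold change of -0.092 (SE 0.061). SLCO5A1 (ENSG00000137571, chromosome 8, 69667047 to 69835064, minus strand) had 152, 131 and 205 counts in ATF4 KO cells, against 199, 198 and 142 counts in parental cells. Its groups overlapped as well, at 3.62 ± 0.761 CPM in ATF4 KO cells and 4.15 ± 0.676 CPM in parental cells, and the log2 fold change was -0.20 (SE 0.145). The SE of SLCO5A1 was the widest of the 5 tested members.

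**Figure D1:**
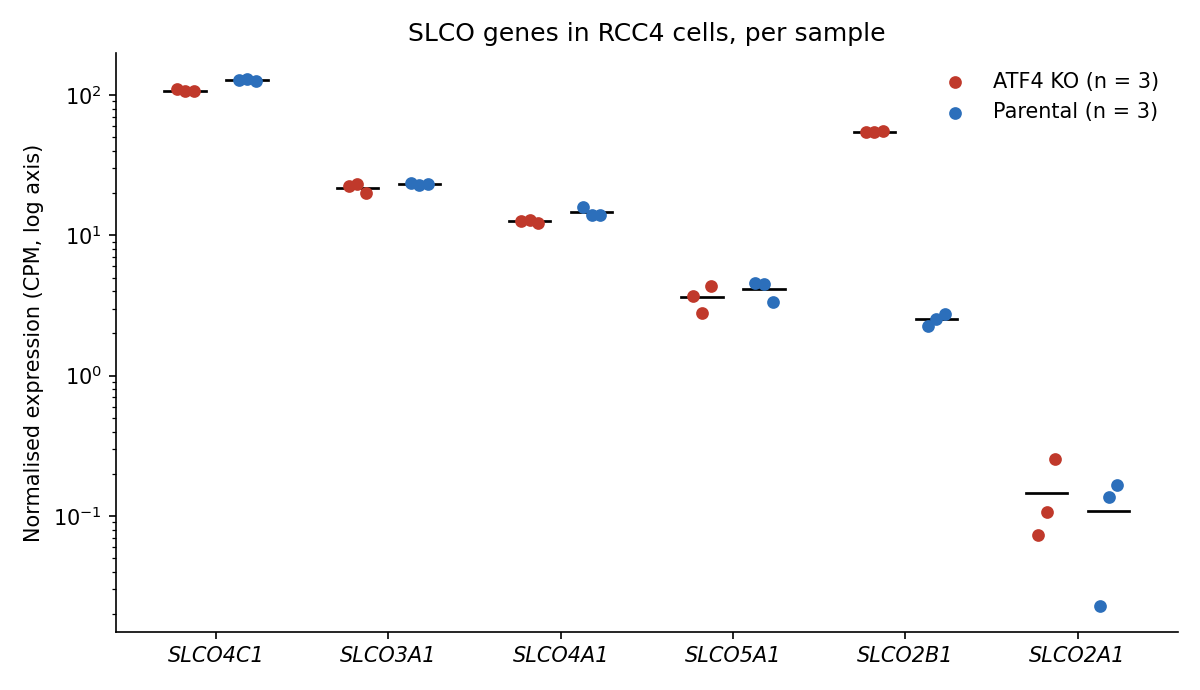
Normalised expression of 6 SLCO genes in CPM (log axis), with red points for the 3 ATF4 KO samples left of blue points for the 3 parental samples and a black bar at each mean. SLCO2B1 lies at 54.7 CPM in ATF4 KO cells and 2.52 CPM in parental cells. For each other gene the ATF4 KO mean lies close to the parental mean, and the points of SLCO2A1 spread from 0.023 to 0.254 CPM. SLCO1B3 is not drawn because nearly all of its counts are 0.

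The prostaglandin transporter SLCO2A1 (ENSG00000174640, chromosome 3, 133928145 to 134052184, minus strand) was at the edge of detection. It had 3, 5 and 12 counts in ATF4 KO cells, against 1, 6 and 7 counts in parental cells. The ratio of the summed counts, scaled to library size, was 1.40 with an exact 95% counting interval of 0.671 to 2.99, so no difference was detectable at this depth. SLCO1B3 (ENSG00000111700, chromosome 12, 20810702 to 20916911, plus strand), the hepatocyte carrier, had 0 counts in all 3 ATF4 KO samples, against 0, 1 and 0 counts in the parental samples. No fold is given for it, since both groups were under 3 counts, and its exons share 1930 bases with the readthrough gene SLCO1B3-SLCO1B7, which also had 1 count in all. Neither gene passed the filter on low counts. Of the 5 members that passed, 1 was called higher and 2 were called lower in ATF4 KO cells, beside 21.2% and 20.8% of all tested genes, and their median log2 fold change was -0.20. The count called lower was 1 without ATF4 KO replicate 3 or without parental replicate 1. The members were chosen on this contrast, so nothing is read from these counts.

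The other protein-coding SLCO genes had almost no transcript in RCC4 cells. SLCO1A2, which transports bile acids and steroid conjugates, had 4, 3 and 0 counts in ATF4 KO cells, against 4, 3 and 2 counts in parental cells. SLCO6A1, known from testis, had 0 counts in ATF4 KO cells and 1 count in parental cells. SLCO1B1, SLCO1B7 and SLCO1C1 had 0 counts in every library. The antisense gene SLCO4A1-AS2, which lies within the SLCO4A1 locus and shares 0 exon bases with it, fell in ATF4 KO cells. It had 51, 34 and 49 counts in ATF4 KO cells, against 85, 106 and 83 counts in parental cells. Its groups did not overlap, as in 49.6% of all tested genes. Its log2 fold change was -1.08 (SE 0.217, edgeR adjusted p = 4.12e-05) and stayed past the threshold in every alternative analysis. The strand setting of the counting is not given in the sources used here, so reads of SLCO4A1 and of this antisense gene may not have been told apart. SLCO5A1-AS1 had 4, 5 and 6 counts in ATF4 KO cells, against 10, 4 and 4 counts in parental cells, and SLCO4A1-AS1 had 0 counts in every library.

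Levels between genes were compared per length, as TPM, the share of all transcripts after division by the summed length of the annotated exons of a gene. SLCO4C1 was first in both groups, at 81.5 ± 1.23 TPM in ATF4 KO cells and 93.2 ± 1.92 TPM in parental cells (SD, n = 3 each). In ATF4 KO cells SLCO2B1 was second at 21.4 ± 0.276 TPM, followed by SLCO4A1 at 12.5 ± 0.375, SLCO3A1 at 9.33 ± 0.700 and SLCO5A1 at 1.46 ± 0.308 TPM. In parental cells the order after SLCO4C1 was SLCO4A1 at 14.1 ± 1.18, SLCO3A1 at 9.57 ± 0.234, SLCO5A1 at 1.62 ± 0.274 and SLCO2B1 at 0.945 ± 0.0853 TPM. The sample ranges of neighbours in these orders did not overlap. SLCO2A1 came last but 1, at 0.0596 ± 0.0397 TPM in ATF4 KO cells and 0.0427 ± 0.0296 TPM in parental cells, and overlapped SLCO1B3 in parental cells. Among 12384 tested protein-coding genes, the SLCO2B1 level was at percentile 48.2 in ATF4 KO cells and percentile 8.27 in parental cells. SLCO4C1 was at percentile 82.6 in ATF4 KO cells and 85.2 in parental cells. With the longest annotated transcript as the length, a choice made after the data were seen, SLCO3A1 at 12.4 ± 0.900 TPM and SLCO4A1 at 11.8 ± 0.324 TPM overlapped in ATF4 KO cells. With that length, SLCO5A1 at 1.29 ± 0.215 TPM and SLCO2B1 at 1.21 ± 0.113 TPM overlapped in parental cells. SLCO2B1 remained second in ATF4 KO cells, at 27.1 ± 0.402 TPM.

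Expressed as a share of the summed TPM of all 12 SLCO genes, SLCO2B1 made up 16.6%, 16.8% and 17.4% in the ATF4 KO samples, against 0.698%, 0.798% and 0.883% in the parental samples. SLCO4C1 made up 64.5 ± 0.446% in ATF4 KO cells and 78.0 ± 0.711% in parental cells. The pool of SLCO transcripts was thus led by SLCO4C1 in both groups, with SLCO2B1 next in ATF4 KO cells and nearly absent from it in parental cells. SLCO4A1 held 9.93 ± 0.287% in ATF4 KO cells and 11.8 ± 0.720% in parental cells, and SLCO3A1 held 7.39 ± 0.507% in ATF4 KO cells and 8.01 ± 0.121% in parental cells. The summed SLCO level was 126 ± 1.29 TPM in ATF4 KO cells and 119 ± 3.20 TPM in parental cells. These values depend on the length used. With the longest transcript, SLCO2B1 held 24.4 ± 0.568% in ATF4 KO cells and 1.26 ± 0.147% in parental cells, and SLCO4C1 held 52.7 ± 0.501% in ATF4 KO cells and 70.2 ± 0.768% in parental cells. The summed level was then 111 ± 0.983 TPM in ATF4 KO cells and 96.4 ± 2.36 TPM in parental cells. A share falls when another member is higher, so the shares are not independent of each other.

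**Figure D2:**
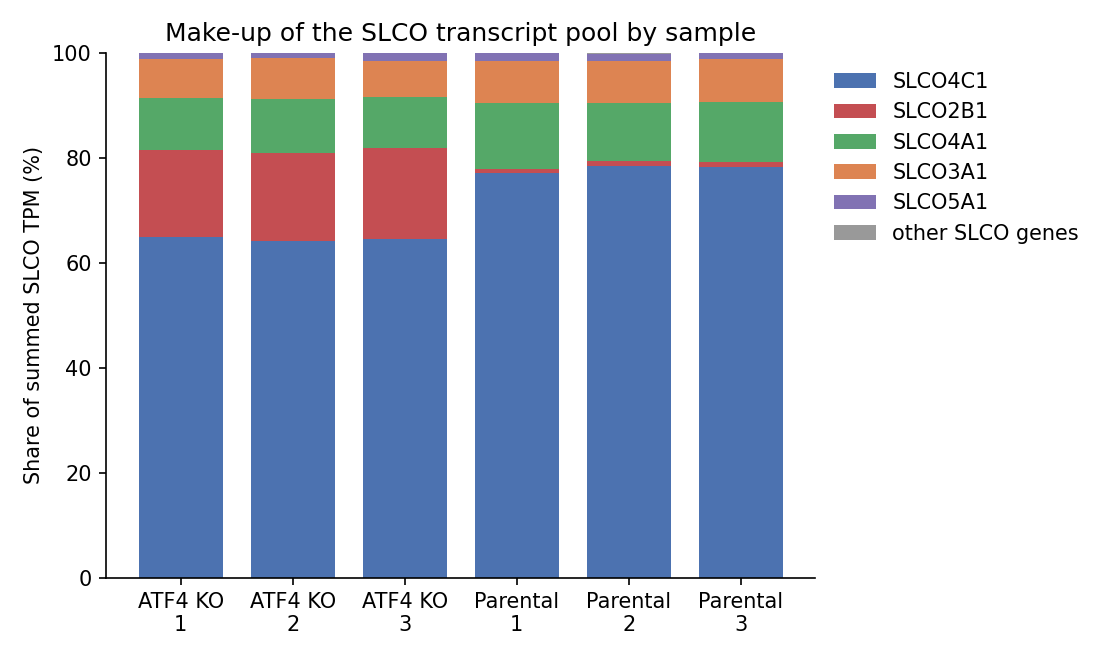
Share of the summed SLCO TPM (%) held by each gene in each of the 6 samples, stacked to 100%, with ATF4 KO samples left of parental samples. SLCO4C1 holds 64.5% in ATF4 KO cells and 78.0% in parental cells, and SLCO2B1 holds 16.9% in ATF4 KO cells and 0.793% in parental cells.

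Whole chromosome regions differed between the groups, so each tested member was set beside the up to 100 tested genes nearest to it. The median log2 fold change of these neighbours was -0.17 around SLCO2B1, -0.025 around SLCO4C1, -0.17 around SLCO4A1, 0.076 around SLCO3A1 and 0.034 around SLCO5A1. The SLCO2B1 difference was thus of opposite sign to its neighbourhood, and that of SLCO4A1 was close to its neighbourhood. With the neighbour median removed, SLCO2B1 stood at 4.61, SLCO4C1 at -0.22, SLCO3A1 at -0.17 and SLCO5A1 at -0.23.

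Among the 5 nearest tested genes on each side of SLCO2B1, most had small log2 fold changes. These genes were named after their values were seen. RNF169, XRRA1, NEU3 and RPS3 were called lower, from -0.28 to -0.15, but none of them once the neighbour median was removed. NEU3 also lost its call without ATF4 KO replicate 1, at -0.14, and without parental replicate 1 or 3, at -0.12 each. SPCS2, ARRB1, GDPD5 and ENSG00000227615 were not called, from -0.17 to 0.11. A pair of genes with few counts stood apart. TPBGL, the next tested gene after SLCO2B1, which starts 34.4 kb past its end, had 41, 32 and 41 counts in ATF4 KO cells, against 12, 4 and 9 counts in parental cells. It rose with a log2 fold change of 2.12 (SE 0.392, edgeR adjusted p = 1.08e-05). Its groups did not overlap, as in 49.6% of all tested genes. KLHL35, 216 kb past the end of SLCO2B1, had 0 counts in all 3 ATF4 KO samples, against 29, 33 and 24 counts in parental cells, at least 29.8-fold lower in ATF4 KO cells with 3 counts over the group as the floor (edgeR adjusted p = 2.80e-10). The tested genes between these, ARRB1 with a log2 fold change of 0.11 (SE 0.070) and the ribosomal protein gene RPS3 with -0.22 (SE 0.029), showed neither pattern. A raised gene with few counts was not particular to this locus. SULF1, 6.13 kb from SLCO5A1, had 20, 33 and 38 counts in ATF4 KO cells, against 6, 6 and 1 counts in parental cells. The log2 fold change of SULF1 was 2.71 (SE 0.473, edgeR adjusted p = 3.82e-06), while the groups of SLCO5A1 overlapped.

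**Figure D3:**
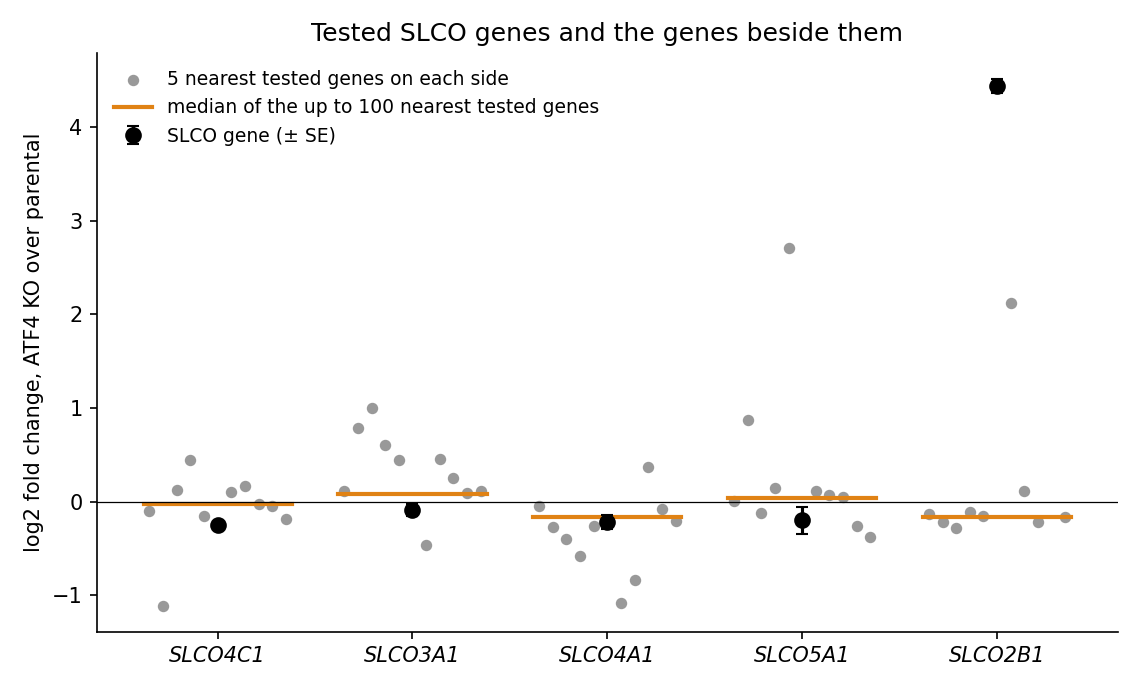
Log2 fold change of ATF4 KO over parental cells for the 5 tested SLCO genes (black, ± SE), with the nearest tested genes on each side in order along the chromosome (grey) and the median of the up to 100 nearest tested genes (orange). SLCO2B1 at 4.44 lies above its neighbours, the closest of which is TPBGL at 2.12; the grey point at 2.71 beside SLCO5A1 is SULF1, and KLHL35, with 0 counts in ATF4 KO cells, is not drawn.

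The genes whose pattern over the 6 samples was most like that of SLCO2B1 were sought among 9377 genes whose mean level reached 10 CPM. Likeness was the root mean square distance between log2 CPM values, each centred on its own mean. The nearest gene was CA9, a hypoxia-inducible carbonic anhydrase, at a distance of 0.847, with 96.9 ± 3.63 CPM in ATF4 KO cells and 16.6 ± 0.554 CPM in parental cells. DMPK, a protein kinase, followed at 1.26, with 32.1 ± 0.776 CPM in ATF4 KO cells and 9.58 ± 0.690 CPM in parental cells. KL, the co-receptor of FGF23, was at a distance of 1.39, the integrin subunit ITGB2 at 1.46 and the N-acetylaspartylglutamate synthetase RIMKLA at 1.47. All were picked for this likeness, so that they were higher in ATF4 KO cells is no separate result, and they lie on chromosomes 9, 19, 13, 21 and 1. The log2 fold change of CA9 was 2.55, against 4.44 for SLCO2B1. SLCO2B1 was picked as the largest rise among genes of such a mean level, so this order is no separate result either.

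Genes that handle the same solutes were taken from 9 lists with 193 genes, of which 109 were tested. Of these, 23 were called higher and 39 lower in ATF4 KO cells, which is 21.1% and 35.8% beside 21.2% and 20.8% of all tested genes. The median log2 fold change was -0.045, against 0.0077 over all tested genes. Without scaling factors 25.7% of the list genes were called higher and 27.5% lower (28 and 30 genes), beside 24.8% and 18.1% of all tested genes. The lists were drawn up with earlier results of these data known, and nothing particular to them is claimed. The counts given below for each list stand beside the same 21.2% higher and 20.8% lower of all tested genes.

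Among uptake carriers outside the SLCO family, 5 of 21 genes were tested, with 0 higher and 2 lower. The urate and phosphate carrier gene SLC17A3 fell, with 1974, 2186 and 2350 counts in ATF4 KO cells against 3292, 3155 and 2992 counts in parental cells, a log2 fold change of -0.59 (SE 0.041, edgeR adjusted p = 3.13e-18). SLC17A1 beside it did not pass the test, at 0.57 (SE 0.238, edgeR adjusted p = 0.0503), but passed it in 4 alternative analyses, among them without ATF4 KO replicate 1, at 0.67. The organic anion transporter gene SLC22A11 had 11, 17 and 13 counts in ATF4 KO cells, against 21, 21 and 22 counts in parental cells, and was not called. SLC10A3 was called lower at -0.11 and lost the call in 7 of the 14 alternative analyses, among them without ATF4 KO replicate 1, at -0.11, ATF4 KO replicate 3, at -0.086, or parental replicate 3, at -0.073.

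Efflux pumps moved in both directions. Of 8 tested genes, 2 were higher and 3 were lower, beside 21.2% and 20.8% of all tested genes. ABCC2, which exports glucuronides and glutathione conjugates at the apical membrane, rose to 47.2 ± 2.76 CPM in ATF4 KO cells, against 32.1 ± 0.719 CPM in parental cells (SD, n = 3 each). Its log2 fold change was 0.56 (SE 0.049, edgeR adjusted p = 3.68e-14). ABCC3, a basolateral exporter of conjugates, rose by 0.37 (SE 0.031, adjusted p = 2.98e-15) on the log2 scale. The multidrug exporter ABCB1 fell to 54.1 ± 2.18 CPM in ATF4 KO cells, against 88.6 ± 3.55 CPM in parental cells, a log2 fold change of -0.71 (SE 0.039, adjusted p = 3.57e-22). ABCC4, which exports prostaglandins and cyclic nucleotides, was at -0.17 (SE 0.029, adjusted p = 2.44e-06).

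In the prostaglandin list 14 of 27 genes were tested, with 5 higher and 3 lower. PTGES, the inducible prostaglandin E synthase, was at a low level and rose, with 84, 76 and 106 in ATF4 KO cells against 36, 42 and 34 in parental cells, a log2 fold change of 1.19 (SE 0.224, edgeR adjusted p = 1.46e-05). The carbonyl reductase CBR3 fell, with a log2 fold change of -0.80 (SE 0.102, adjusted p = 2.64e-09), or -0.51 with the neighbour median removed. CBR1, a neighbour of CBR3 on chromosome 21 that reduces prostaglandins, was at -0.31 and at -0.0088 once the neighbour median was removed. PTGR1, which inactivates prostaglandins, rose by 0.29 (SE 0.054, adjusted p = 8.42e-06). In the list on steroid sulfates and oestrogen, which holds the best-known solutes of SLCO2B1, 23 of 37 genes were tested, with 4 higher and 7 lower. PAPSS2, which makes the sulfate donor, fell by 0.33 (SE 0.041, adjusted p = 8.36e-10), and the hydroxysteroid dehydrogenase HSD17B12 fell by 0.35 (SE 0.043, adjusted p = 6.06e-10), and by 0.14 once the neighbour median was removed. The sulfotransferase SULT2B1 had 8, 6 and 13 counts in ATF4 KO cells, against 18, 26 and 12 counts in parental cells, a log2 fold change of -1.10. The call of SULT2B1 was lost in 7 alternative analyses, among them without ATF4 KO replicate 1 or 2, at -1.09 and -0.86, and without parental replicate 1 or 2, at -1.13 and -0.80. The strict filter of 1 CPM in 3 samples left SULT2B1 untested. HSD3B7, of bile acid synthesis, rose by 0.18 (SE 0.030, adjusted p = 2.12e-06), and by 0.077 once the neighbour median was removed. SRD5A1, a steroid reductase, was at 0.38 and at 0.11 once the neighbour median was removed.

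In the thyroid hormone list 14 of 23 genes were tested, with 4 higher and 6 lower. The receptor gene THRB fell by 0.35 (SE 0.050, edgeR adjusted p = 7.28e-08), and the co-regulators NCOR1 and MED1 rose by 0.15 and 0.17, or by 0.10 each with the neighbour median removed. In the list of nuclear receptors, HNF factors and scaffolds 20 of 26 genes were tested, with 1 higher and 8 lower. PPARA, PPARD and CEBPB, a receptor pair for fatty acids and a C/EBP factor, had log2 fold changes of -0.47, -0.45 and -0.50. All of these passed the test, with edgeR adjusted p-values of 4.97e-12, 2.79e-13 and 3.16e-12. With the neighbour median removed they stood at -0.20, -0.38 and -0.34 and still passed. NR5A2, an orphan receptor, had 10, 7 and 1 counts in ATF4 KO cells, against 16, 23 and 15 counts in parental cells, a log2 fold change of -1.61. NR5A2 lost its call in 3 alternative analyses, with DESeq2 and without ATF4 KO replicate 3, at -1.09, or parental replicate 2, at -1.41. The strict filter of 1 CPM in 3 samples left NR5A2 untested. The scaffold NHERF1 was at 0.19 and at 0.047 once the neighbour median was removed.

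In the glucuronidation list 9 of 20 genes were tested, with 1 higher and 4 lower. UGT1A6, a glucuronosyltransferase for phenols, had a log2 fold change of -0.59 (SE 0.031, edgeR adjusted p = 4.01e-23), but the UGT1A genes share exons, so how their reads were split is uncertain. UGT1A1, which conjugates bilirubin, was at -0.17 and lost its call in 7 alternative analyses, among them without ATF4 KO replicate 2 or 3, at -0.14 and -0.15, and without parental replicate 2 or 3, at -0.18 and -0.12. UGT2A3 was at -0.73, and at -0.58 without parental replicate 3, short of the threshold. UGP2, which makes UDP-glucose, was at 0.15 and at 0.073 once the neighbour median was removed, short of the threshold. In the haem and porphyrin list 16 of 17 genes were tested, with 6 higher and 6 lower. SLC48A1, which carries haem out of lysosomes, rose to 330 ± 3.86 CPM in ATF4 KO cells, against 253 ± 5.13 CPM in parental cells, a log2 fold change of 0.39 (SE 0.028, adjusted p = 1.91e-17). HMOX1, the inducible haem oxygenase, rose by 0.13 (SE 0.028, adjusted p = 8.15e-05), and by 0.40 with the neighbour median removed. ALAD, of porphyrin synthesis, and BLVRA, biliverdin reductase, fell by 0.25 and 0.21, with adjusted p-values of 9.39e-05 and 5.71e-06.

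**Figure D4:**
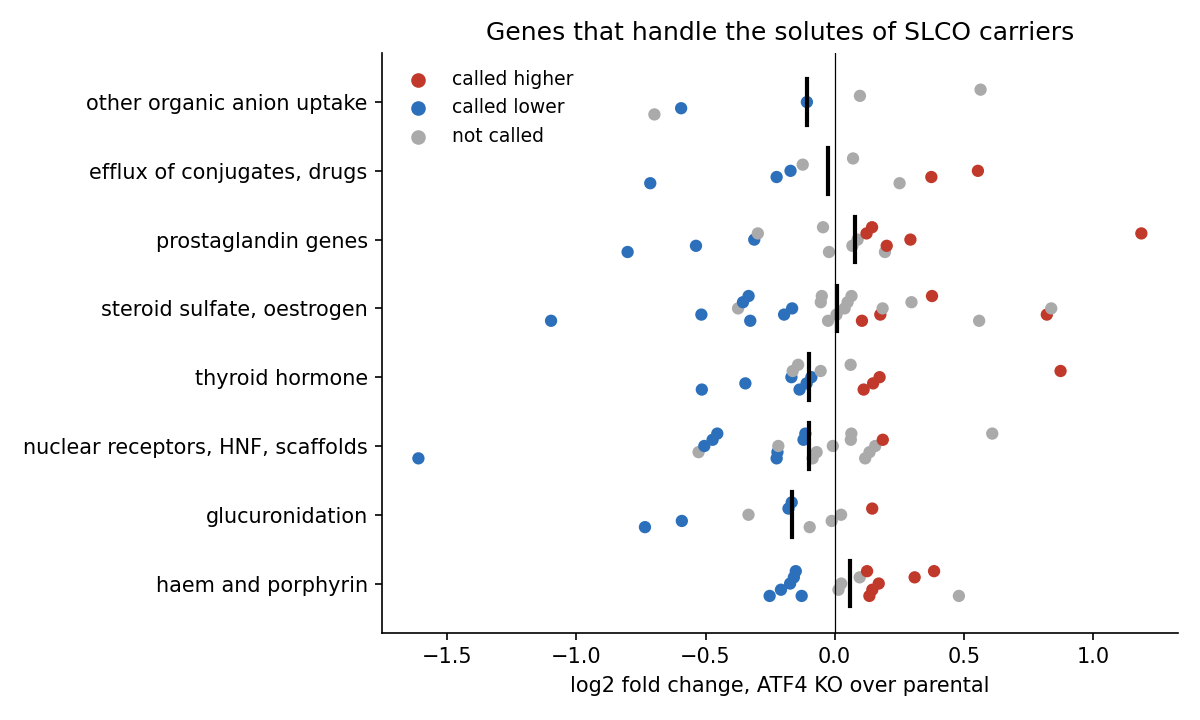
Log2 fold change of ATF4 KO over parental cells for the tested genes of 8 lists, with red points for genes called higher, blue for genes called lower, grey for genes not called, and a black bar at the median of each list. Red and blue points are found in every list except other organic anion uptake, which has no red point, and no gene lies near the 4.44 of SLCO2B1.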

How the data were processed

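Libraries were made with a stranded mRNA kit from total RNA. The authors deposited raw counts of reads per gene. Per the submitters' processing notes, bcl2fastq 2.20, cutadapt, STAR, HTSeq and the build GRCh38 were used. For the annotation, the strand setting and the other versions, the sources used here give nothing. A table of gene names paired 60370 of 60683 identifiers, GENCODE 29 named 289 more and gave positions and lengths.

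Samples were grouped by their labels. Genes kept by filterByExpr were tested with edgeR 4.0.16 (TMM factors, quasi-likelihood, no replicate term) in R 4.3.3, with Benjamini-Hochberg adjustment. CPM are scaled by TMM factors, and log2 fold changes are ATF4 KO over parental. Whether samples were separate cultures is not stated, so p-values measure only the spread between these samples. Samples of a group differed beyond sampling noise (chi-square over degrees of freedom of 3.59 to 5.80), and all 6 were kept. Alternatives were DESeq2 1.42.0, limma 3.58.1 (voom), other scaling and filters, a replicate block, removal of the median of the 50 nearest tested genes on each side, and leaving out each sample.

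The members and lists were chosen with earlier results of these data known. Named were all SLCO genes; ATF4; in each list the 4 genes with the smallest p and every called gene changed at least 2-fold; the 5 genes most like SLCO2B1; and the next 2 by fold change. Exceptions are stated, and 1 gene that this rule names is not reported here. Figures were drawn with matplotlib 3.10.9.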

Additional observations from a re-analysis of the deposited data

How the results depend on the processing

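Over 14 alternative analyses of the same data, SLCO2B1 was called higher and SLCO4C1 lower each time. The members were chosen on this contrast, so these repeated calls describe the processing and are no separate support. Leaving out 1 sample at a time moved the log2 fold change of SLCO2B1 between 4.37 and 4.51, of SLCO4C1 between -0.27 and -0.24, of SLCO3A1 between -0.14 and -0.031 and of SLCO5A1 between -0.36 and -0.045. For SLCO4A1 the range was -0.25 to -0.16, and the count of members called lower was 1 or 2, since SLCO4A1 was not called without ATF4 KO replicate 3, at -0.20, or without parental replicate 1, at -0.16. With the neighbour median removed, SLCO4A1 at -0.050 was no longer called and SLCO3A1 at -0.17 was called. In the same fit ATF4 stood at 0.064, NEU3 at 0.018 and SLC10A3 at 0.082, of opposite sign to the other fits. Of 48 other named genes, 15 changed their call in at least 1 alternative. Of 252 counts of called genes per list, 30 moved by over 1.5 times. The cause was not tested. Same-numbered samples did not deviate together (correlations of -0.028, 0.0063 and -0.016), so no pairing by number was seen. Correlations over many genes cannot exclude a pairing that touched few of them. With the replicate block the log2 fold change of SLCO2B1 was 4.44, and 3224 genes were called higher and 3181 lower, against 3244 and 3184 without it. SULT2B1 lost its call under the replicate block (adjusted p = 0.0634). DESeq2 called 2613 genes higher and 2788 lower. Depth limits what can be said of SLCO2A1 and SLCO1B3, which passed no filter on low counts.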
